A study of Mus musculus with 69 samples.

Results

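This account covers 32 mouse genes of cholesterol and fatty acid synthesis, out of 23366 genes in the deposited tables. They were found by symbol and fall into 4 roles. The mevalonate steps had 7 genes (Acat2, Hmgcs1, Mvk, Pmvk, Mvd, Idi1 and Fdps) and the sterol steps 11 (Fdft1, Sqle, Lss, Cyp51, Tm7sf2, Sc4mol, Nsdhl, Hsd17b7, Ebp, Sc5d and Dhcr7). SREBP control and sterol transport had 4 (Srebf1, Srebf2, Insig1 and Stard4), and fatty acid synthesis had 10 (Acly, Acss2, Acaca, Fasn, Elovl6, Scd1, Scd2, Fads1, Fads2 and Me1). All 32 symbols were in the tables, where Msmo1 stands under its older symbol Sc4mol.

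Cells build cholesterol from acetyl-CoA through mevalonate, isoprenoid units, squalene and lanosterol, and they build fatty acids from malonyl-CoA by elongation and desaturation. The SREBP factors, encoded by Srebf1 and Srebf2, drive the genes of both routes when membrane sterol is low, and Insig1 protein holds them back in the endoplasmic reticulum. T cells raise both routes when they are activated, because growth and division need new membrane.

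RNA came from naive CD4 T cells cultured for 72 h. They received anti-CD3 (1 ug/ml) and the cytokine IL-27 (25 ng/ml), a mix that drives them toward IL-10-secreting type 1 regulatory (Tr1) cells. Anti-CD8 (1 ug/ml) is listed too, and 2000 cells were lysed per library. The series asked which transcription factors regulate IL-10, per its title, and here each of 16 knockout genotypes was compared with its own controls. Of 69 libraries, 63 were used: 35 knockout and 28 control. The 6 left out were the 4 of the Cebpb experiment, replicate 3 of the double knockout and replicate 1 of the Fosl2 knockout. CD4-Cre, which is active in T cells, deleted floxed Prdm1 (3 libraries), Maf (3), both together (2 used), Fosl2 (1 used), Hif1a (2), Nfil3 (2) and Stat3 (1). Actin-Cre was used for Atf3 (2) and dLck-Cre for Irf8 (2). The labels name Ahr (2), Batf (2), Ets1 (2), Irf1 (3), Irf4 (2), Irf9 (4) and Tbx21 (2) as knockouts without more detail. The Prdm1, Maf and double knockouts shared 3 Cre-negative controls. The Batf, Stat3, Irf8 and Irf1 knockouts shared 4 wild-type controls in 3 batches, A and B given by the titles and C by exclusion. Controls were floxed without Cre for Atf3, Fosl2, Hif1a and Nfil3 and wild type for the rest, 3 libraries for Irf4, Irf9 and Nfil3 and 2 for the others. The Irf9 experiment used BALB/c mice and the rest used C57BL/6 mice. Whether replicate libraries stem from different mice or cultures is not in the labels, so a p-value reflects library spread, which may be technical.

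Library totals ran from 743445 to 15221850 expected counts. The ribosomal transcript Rn45s held 1.18% to 43.7% of a library, with the highest share in Irf8 knockout 1. In the Fosl2 libraries used it held 34% to 40.9%. A high share lowers the CPM of every other gene. The targeted gene was lower past the threshold for Prdm1, Batf, Stat3, Tbx21 and Irf4, and Maf had 0 counts in every Maf and double knockout library. It was not lower in the libraries labelled Ets1 knockout (0.20 ± 0.07, adjusted p = 0.0517), and it was higher in those labelled Atf3 knockout (1.94 ± 0.19, adjusted p = 8.42e-10). The other targets did not pass the threshold. Nfil3 was at 211 and 3.08 CPM in the libraries labelled Nfil3 knockout, against 270, 252 and 277 CPM in Nfil3 controls. Ahr was at 12.5 and 14 CPM in those labelled Ahr knockout, against 7.13 and 7.31 CPM in Ahr controls. Irf8, Fosl2, Hif1a, Irf1 and Irf9 had log2 changes of 0.12 ± 0.23, -0.04 ± 0.25, -0.32 ± 0.18, -0.67 ± 0.23 and -0.61 ± 0.20. A gene total cannot show a deleted exon, and every knockout group below is named by its label alone. The summed level of 7 CD4 T cell markers was 1360 to 4950 CPM in every group used, lowest in Irf8 knockouts (1360 to 2410 CPM), with no marker at 0. In bulk RNA, fewer cells of a type and less RNA per cell cannot be told apart. Levels below are CPM of expected counts. A change is the log2 ratio, knockout against control, from edgeR's quasi-likelihood fit over all genes, with its standard error after ±. A gene was called at an adjusted p (Benjamini-Hochberg over all genes tested) under 0.05.

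The sequence just before a gene's start is where SREBP factors and their partners bind, so promoter windows are shown for Hmgcs1 and Acss2, in which both an ETS motif and a CCAAT box were found and which rose in the libraries labelled Ets1 knockout (Dhcr7, the other gene with both motifs, did not rise there and is not shown), for Idi1, the member past the threshold most often, and for Hsd17b7, one of the largest rises in the libraries labelled Ets1 knockout. Windows run from 250 bases before to 50 bases after the start (RefSeq, GRCm38.p6), and capitals mark motif matches on either strand. The motifs were the sterol regulatory element TCACNCCAC, the NF-Y box CCAAT and the ETS motif CCGGAAG.
Hmgcs1 (chr13:119690101-119690400, plus strand): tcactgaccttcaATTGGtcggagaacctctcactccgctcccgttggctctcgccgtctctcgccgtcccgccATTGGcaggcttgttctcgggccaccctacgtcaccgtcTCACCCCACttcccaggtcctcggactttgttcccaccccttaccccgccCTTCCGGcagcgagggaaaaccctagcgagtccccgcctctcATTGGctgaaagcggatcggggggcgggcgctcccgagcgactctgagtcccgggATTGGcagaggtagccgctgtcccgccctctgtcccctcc
Acss2 (chr2:155517793-155518092, plus strand): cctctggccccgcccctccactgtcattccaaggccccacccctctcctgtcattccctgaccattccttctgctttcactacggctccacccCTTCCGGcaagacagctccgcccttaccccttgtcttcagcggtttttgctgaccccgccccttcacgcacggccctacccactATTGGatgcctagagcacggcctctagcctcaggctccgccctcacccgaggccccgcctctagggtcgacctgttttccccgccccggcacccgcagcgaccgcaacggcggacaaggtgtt
Idi1 (chr13:8885356-8885655, plus strand): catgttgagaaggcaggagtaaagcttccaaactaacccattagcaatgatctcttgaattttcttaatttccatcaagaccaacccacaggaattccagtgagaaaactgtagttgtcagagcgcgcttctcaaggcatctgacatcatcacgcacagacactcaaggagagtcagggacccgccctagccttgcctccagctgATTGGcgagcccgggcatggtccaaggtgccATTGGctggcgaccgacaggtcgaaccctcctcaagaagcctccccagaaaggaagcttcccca
Hsd17b7 (chr1:169969156-169969455, minus strand): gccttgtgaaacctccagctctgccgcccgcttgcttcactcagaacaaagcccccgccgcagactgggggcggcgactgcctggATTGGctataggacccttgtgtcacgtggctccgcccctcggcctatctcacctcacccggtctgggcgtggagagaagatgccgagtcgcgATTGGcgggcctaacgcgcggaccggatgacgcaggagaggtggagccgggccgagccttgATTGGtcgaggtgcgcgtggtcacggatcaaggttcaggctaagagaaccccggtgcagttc
The Hmgcs1 window held 1 sterol regulatory element, 4 CCAAT boxes and 1 ETS motif. That of Acss2 held 1 CCAAT box and 1 ETS motif, that of Idi1 held 2 CCAAT boxes and that of Hsd17b7 held 3. Windows were found for 24 of the 32 genes, 30 windows in all. A CCAAT box was in 21 of these 30, against 37.4% of all 32851 mouse windows. The sterol regulatory element was in 1 window, that of Hmgcs1, against 1.24% of all windows. The ETS motif was in 3, those of Acss2, Dhcr7 and Hmgcs1, against 8.86% of all windows. Matches are letters only, no binding was measured, and motifs outside these windows were not searched.

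In the 28 control libraries the levels, per length in the TPM deposited by the authors, spanned a wide range. Scd2, a stearoyl-CoA desaturase that puts the first double bond into saturated fatty acids, was highest with a median of 573 TPM. Next came Fdps, which makes farnesyl diphosphate, at 403 TPM, the factor gene Srebf2 at 205 TPM, Acly, which makes cytosolic acetyl-CoA from citrate, at 189 TPM, and Hmgcs1, which makes HMG-CoA, at 112 TPM. Lowest were Hsd17b7, a sterol reductase, at 10.4 TPM, the elongase Elovl6 at 8.67 TPM, and Me1, the malic enzyme that supplies NADPH, at 0.02 TPM. Fasn, the fatty acid synthase, had a group median of 258 TPM in the BALB/c controls of the Irf9 experiment. Its C57BL/6 control medians ran from 28.1 TPM (Prdm1 and Maf experiment) to 133 TPM (Nfil3 experiment). Scd1 stood at 16.6 TPM in those BALB/c controls. Its C57BL/6 control medians ran from 20.9 TPM (Prdm1 and Maf experiment) to 92.5 TPM (Irf4 experiment). Strain and experiment cannot be told apart in these levels.

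The set did not move alike across knockouts. In the libraries labelled Ets1 knockout 22 members rose and none fell, leaving out Me1, which passed the filter on low counts only through the group in which it is high. In Irf4 knockouts 10 fell and 2 rose, and in Irf9 knockouts 4 fell and none rose. The Prdm1 knockout had 4 rises and 2 falls, the double knockout 5 and 5, and the Maf knockout 1 and 1. The libraries labelled Atf3 knockout had 3 rises, the Tbx21 knockout had 1 rise and 1 fall, and Batf and Stat3 knockouts had 1 rise each, of Idi1. No member passed in Ahr, Fosl2, Hif1a, Irf1, Irf8 or Nfil3.

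**Figure D1:**
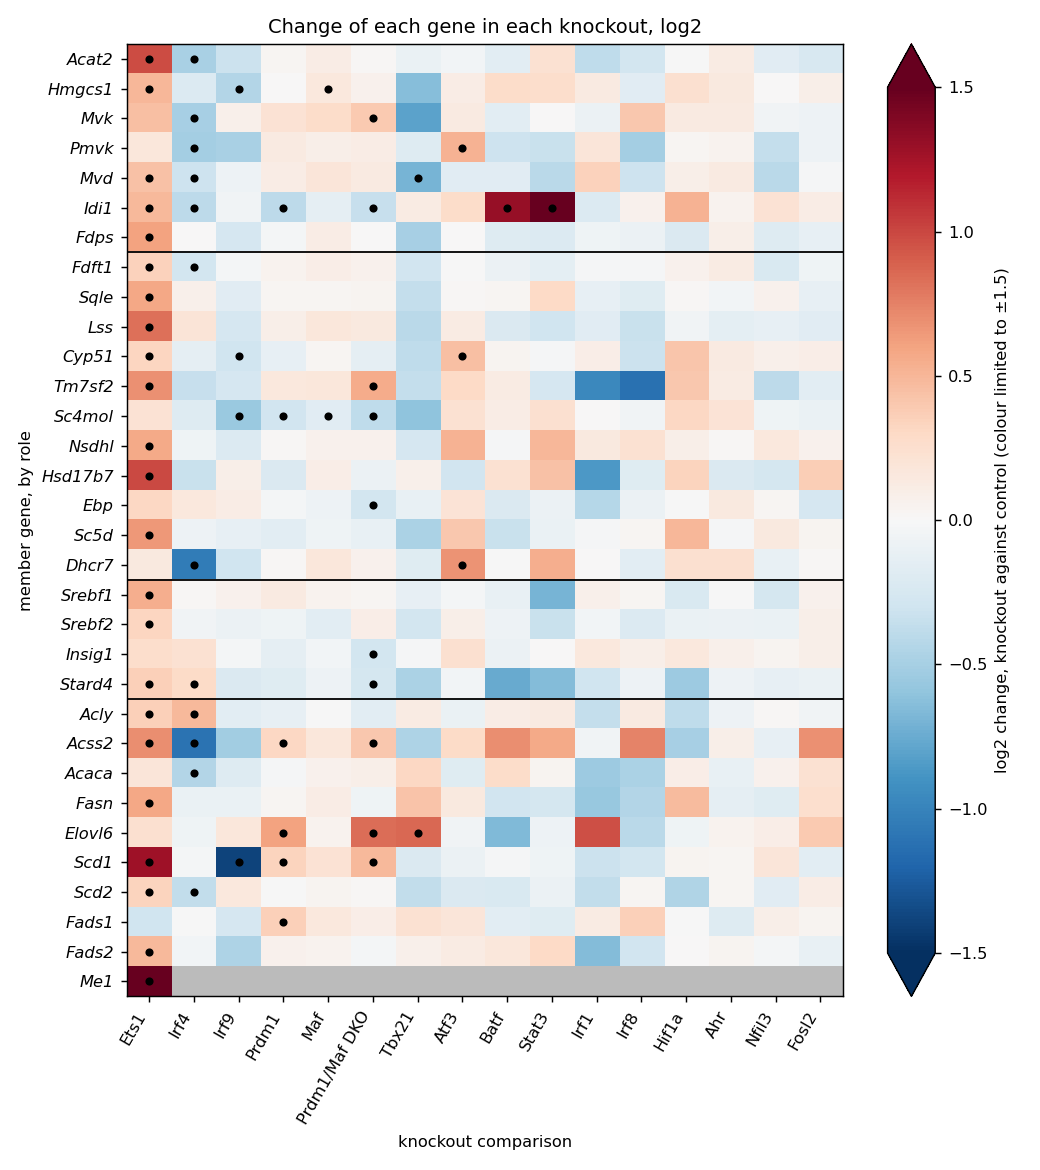
Log2 change, knockout against control, of the 32 genes (rows, by role, with lines between roles) in the 16 comparisons (columns). Black dots mark genes past the threshold, and grey marks Me1 where it was too low to be tested. The Ets1 column holds 23 dots with that of Me1, the Irf4 column 12, and the Idi1 row 6.

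The libraries labelled Ets1 knockout had higher levels of genes along both routes, from acetyl-CoA to cholesterol and to desaturated fatty acids. Of the 31 members other than Me1, 22 rose (71%), where 10% of the 10786 genes tested rose and 10.3% fell, and their median change was 0.45, against 0.0031 for all genes. Risen genes numbered 5 of 7 mevalonate steps, 8 of 11 sterol steps, 3 of 4 control genes and 6 of 9 fatty acid genes. The 32 genes together made up 7024 and 7393 CPM in the libraries labelled Ets1 knockout, against 5145 and 5746 CPM in Ets1 controls. Both labelled libraries lay above both controls for 26 of the 31, where 26.7% of all genes did so, and below them for 1, where 32.2% of all genes did so.

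Acat2, the cytosolic acetoacetyl-CoA thiolase at the head of the mevalonate route, stood at 118 and 116 CPM in the libraries labelled Ets1 knockout, against 59.8 and 61.8 CPM in Ets1 controls (0.97 ± 0.10, adjusted p = 9.24e-05). The groups were far apart, with little spread within either. Hmgcs1, the next enzyme, stood at 242 and 222 CPM in the labelled libraries, against 167 and 168 CPM in controls (0.50 ± 0.09, adjusted p = 0.00212). Idi1, which turns isopentenyl into dimethylallyl diphosphate, stood at 146 and 149 CPM, against 109 and 107 CPM in controls (0.49 ± 0.09, adjusted p = 0.00288). Neither gene's groups overlapped. Mvd, the mevalonate diphosphate decarboxylase, and Fdps also rose (0.44 ± 0.12 and 0.60 ± 0.08). Mvk and Pmvk, the kinases before Mvd, had 0.45 ± 0.17 and 0.17 ± 0.14 and did not pass.

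Among sterol steps, Hsd17b7 stood at 49.0 and 44.5 CPM in the libraries labelled Ets1 knockout, against 24.9 and 23.0 CPM in Ets1 controls (0.99 ± 0.14, adjusted p = 0.000602). Lss, which closes the sterol rings to give lanosterol, stood at 101 and 102 CPM, against 61.2 and 55.4 CPM in controls (0.83 ± 0.10, adjusted p = 0.000279). Both labelled libraries were above both controls for either gene. Sqle, Fdft1, Cyp51, Tm7sf2, Nsdhl and Sc5d rose as well, by 0.32 (Cyp51) to 0.68 (Tm7sf2). Sc4mol, Ebp and Dhcr7 did not pass, with 0.22 ± 0.12, 0.30 ± 0.13 and 0.15 ± 0.12. The factor genes Srebf1 and Srebf2 rose (0.54 ± 0.09 and 0.32 ± 0.07). Stard4, a carrier of sterol between membranes, rose too (0.36 ± 0.10), and Insig1 did not pass (0.26 ± 0.12).

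Scd1, the second desaturase gene, had the largest rise of the 22, at 372 and 409 CPM in the libraries labelled Ets1 knockout, against 177 and 153 CPM in Ets1 controls (1.27 ± 0.09, adjusted p = 4.48e-06), or 2.41-fold. Acss2, which makes acetyl-CoA from acetate, stood at 48.2 and 52.5 CPM, against 30.5 and 32.8 CPM in controls (0.70 ± 0.14, adjusted p = 0.00445). For both genes the groups were clearly apart. Me1 had 39 and 34 counts in the libraries labelled Ets1 knockout, against 7 and 1 in Ets1 controls, or 8.32 and 7.63 CPM, against 1.64 and 0.233 CPM. It was tested in no other knockout comparison, and since the filter let it through by its high group, these values are a description only. Acly, Fasn, Scd2 and Fads2, a delta-6 desaturase, also rose, by 0.34 (Scd2) to 0.58 (Fasn). Acaca, the acetyl-CoA carboxylase, and Elovl6 did not pass (0.19 ± 0.12 and 0.24 ± 0.14), and neither did Fads1 (-0.30 ± 0.14), which was the only member with a negative change here.

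**Figure D2:**
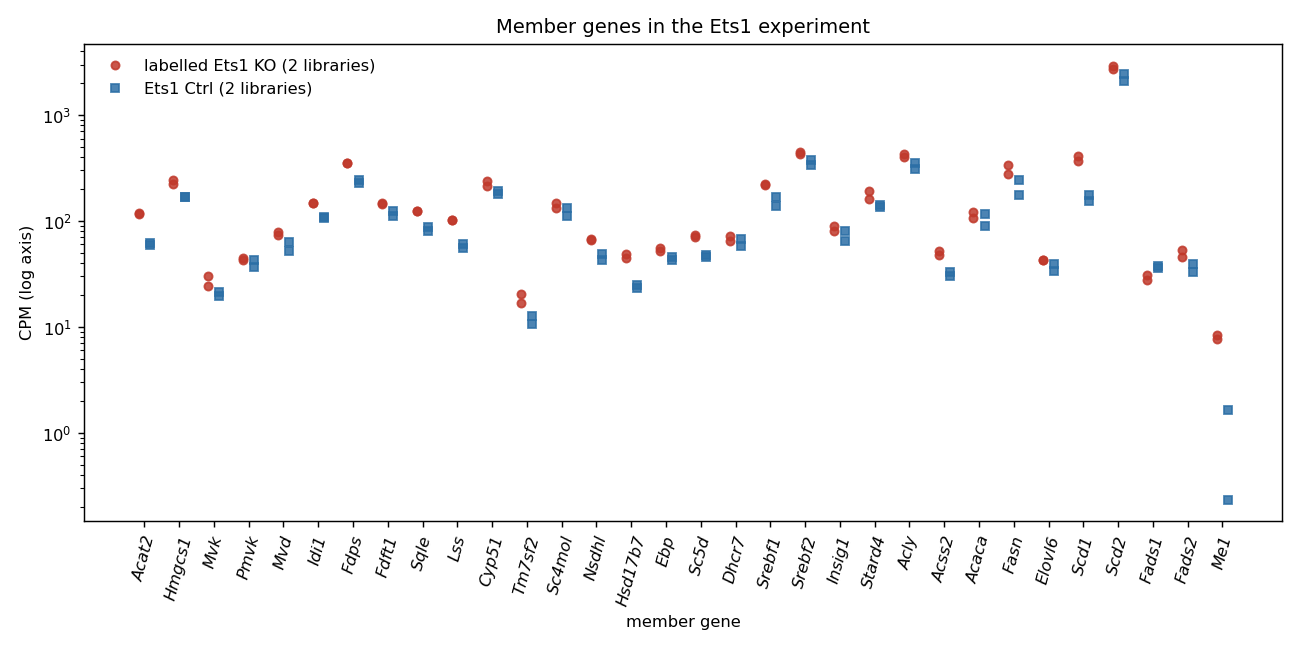
CPM (log axis) of each of the 32 genes in the 2 libraries labelled Ets1 knockout (red circles) and the 2 Ets1 controls (blue squares). The red circles lie above the blue squares for 27 genes and below them for Fads1.

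Ets1 itself stood at 809.5 and 778 CPM in the labelled libraries, against 722 and 683 CPM in controls, so these values rest on the labels alone. Rn45s took 8.36% and 9.15% of the labelled libraries, against 4.65% and 7.56% of the controls, and the count of rises, 23 with Me1, was also 23 with Rn45s left out before scaling. The 8 B cell markers summed to 24.6 to 28.5 CPM in the labelled libraries, with Pax5 at 0, and to 25.2 to 26.2 CPM in controls. The 5 CD8 T and NK cell markers summed to 43.2 to 45.6 CPM in the labelled libraries and 61.0 to 66.9 CPM in controls, with Ncr1 and Klrb1c at 0 in both. Of 3 tested, Cd8a and Cd8b1 rose (1.73 ± 0.46 and 1.26 ± 0.23) and Klrk1 fell (-1.89 ± 0.15). Of the 7 CD4 T cell markers Cd28 rose and Cd4, Cd3d, Cd5 and Lck fell. The part of these in the result was not tested. Without labelled library 2 the count with Me1 was 15.

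In Irf4 knockouts 5 of 7 mevalonate steps fell. Irf4 encodes a factor induced by T cell receptor signalling. In all 10 of 31 tested members fell (32.3%), where 13.2% of the 10477 genes tested fell, and 2 rose (6.45%), where 14.8% of all genes rose. The median change was -0.105, against -0.0062 for all genes.

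Acat2 stood at 69.4 and 79.4 CPM in Irf4 knockouts, against 119, 101 and 106 CPM in Irf4 controls (-0.49 ± 0.11, adjusted p = 0.00161). Pmvk, the phosphomevalonate kinase, stood at 38.6 and 44.1 CPM in Irf4 knockouts, against 64.2, 67.2 and 56.6 CPM in controls (-0.51 ± 0.13, adjusted p = 0.00499). Mvk, the mevalonate kinase, stood at 26.7 and 29.9 CPM, against 41.8, 39.8 and 42.2 CPM in controls (-0.50 ± 0.15, adjusted p = 0.0122). All 3 genes were lower in both knockouts than in any control. Irf4 controls 1 and 2 differed by little more than counting noise (chi-square 1.1 times its degrees of freedom). Controls 1 and 2 may therefore not be separate, and the p-values in this experiment may rest on too small a spread. Irf4 control 3 differed more from controls 1 and 2 (2.52 and 2.2 times). Idi1 and Mvd fell less (-0.39 ± 0.10 and -0.31 ± 0.11). Hmgcs1 and Fdps had -0.20 ± 0.09 and 0.00 ± 0.08 and did not pass.

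Of the sterol steps, Dhcr7 and Fdft1 fell. Dhcr7, the reductase of the last step to cholesterol, stood at 50.1 and 51.6 CPM in Irf4 knockouts, against 105, 103 and 116 CPM in Irf4 controls (-1.05 ± 0.12, adjusted p = 1.59e-07), or 0.482-fold. Both knockouts lay well below every control. Fdft1, the squalene synthase, fell by 0.27 on the log2 scale, and the other 9 sterol genes did not pass. Stard4 stood at 162 and 159 CPM in Irf4 knockouts, against 149, 125 and 137 CPM in controls (0.29 ± 0.09, adjusted p = 0.0253), while Srebf1, Srebf2 and Insig1 did not pass.

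In fatty acid synthesis the 2 sources of cytosolic acetyl-CoA moved apart. Acss2, which uses acetate, stood at 21.1 and 18.9 CPM in Irf4 knockouts, against 42.6, 50.2 and 44.3 CPM in Irf4 controls (-1.10 ± 0.16, adjusted p = 8.48e-06). Acly, which uses citrate, stood at 578 and 605 CPM in Irf4 knockouts, against 450.3, 452 and 429 CPM in controls (0.48 ± 0.08, adjusted p = 3.5e-05). Neither gene's groups overlapped. Acaca and Scd2 fell (-0.44 ± 0.10 and -0.37 ± 0.07), and Fasn, Elovl6, Scd1, Fads1 and Fads2 did not pass. Of the 12 members, the count was 5 without Irf4 knockout 1, 7 without Irf4 knockout 2 and 7 with DESeq2, and Acss2 and Dhcr7 passed as falls in each. Summed B cell markers were 27.1 to 32.7 CPM in Irf4 knockouts and 19.7 to 25.7 CPM in controls, and their part was not tested. Those of CD8 T and NK cells were 18.2 to 23.1 CPM in Irf4 knockouts and 60.6 to 68.2 CPM in controls, with Ncr1 at 0 in both. Of 3 tested, Klrk1 fell (-2.84 ± 0.21) and none rose, with a list median of -1.07. Of the 7 CD4 T cell markers Cd3e, Cd5 and Cd28 fell.

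Whether the Ets1 and Irf4 changes differ was tested in a joint fit with a mean per group, a fit added after the values were seen. Of the 31 members other than Me1, 23 were higher in the Ets1 change than in the Irf4 change (74.2%) and none lower, where 9.26% of 11244 genes were higher and 10.3% lower. All 7 mevalonate genes passed. The largest differences past the threshold were those of Acss2 (1.80 ± 0.21, adjusted p = 1.23e-06), Acat2 (1.47 ± 0.15, adjusted p = 3.05e-07), Hsd17b7 (1.33 ± 0.23, adjusted p = 0.000231), Scd1 (1.3 ± 0.13, adjusted p = 2.77e-07) and Dhcr7 (1.20 ± 0.16, adjusted p = 1.1e-05). Acly and Stard4, which rose in both, did not differ past the threshold (-0.12 ± 0.11, adjusted p = 0.501 for Acly and 0.08 ± 0.14, adjusted p = 0.762 for Stard4). The experiments had their own controls, so genotype and experiment cannot be told apart in these differences.

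**Figure D3:**
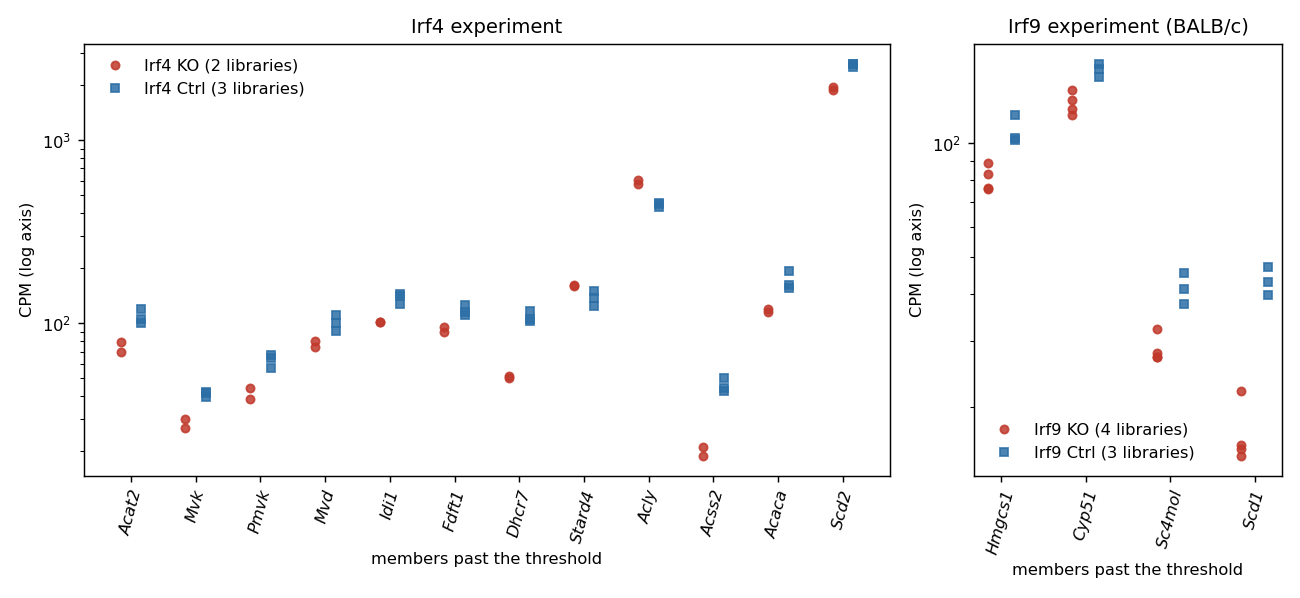
CPM (log axes) of the members past the threshold in the Irf4 experiment (left, 2 knockout and 3 control libraries) and the Irf9 experiment (right, 4 knockout and 3 control libraries). Red circles are knockouts and blue squares controls; all knockouts lie below all controls except for Stard4 and Acly in Irf4, where they lie above.

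In Irf9 knockouts, which were BALB/c cells, Scd1 had the largest fall. Irf9 encodes a transcription factor of type I interferon signalling. Scd1 stood at 14.9, 15.9, 15.5 and 22.1 CPM in Irf9 knockouts, against 42.9, 47.1 and 39.7 CPM in Irf9 controls (-1.39 ± 0.18, adjusted p = 4.31e-06), or 0.383-fold. The highest knockout, replicate 4, still lay below the lowest control. Sc4mol, the sterol C4 methyl oxidase, stood at 27.8, 32.2, 27.1 and 27.1 CPM, against 41.1, 45.5 and 37.5 CPM in controls (-0.55 ± 0.16, adjusted p = 0.0353). Hmgcs1 stood at 88.8, 75.8, 76.1 and 83.2 CPM in Irf9 knockouts, against 102, 104 and 119 CPM in controls (-0.44 ± 0.10, adjusted p = 0.00894). Cyp51, the lanosterol demethylase, stood at 130.3, 139, 124 and 119 CPM, against 163, 149.6 and 158 CPM in controls (-0.30 ± 0.08, adjusted p = 0.0302). None of these genes' groups overlapped.

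These 4 of 31 tested members made 12.9%, where 2.48% of the 8901 genes tested fell, and no member rose, where 2.45% of all genes rose. The median change was -0.189, against -0.00085 for all genes, and 25 members had a negative change. Scd2, at 306 TPM in Irf9 controls, had 0.16 ± 0.05, adjusted p = 0.0537 and did not pass, and its groups overlapped. Scd1 alone passed with DESeq2, without Irf9 control 3, and with the closest library pairs summed, which left 2 against 2. That last fit was added because knockouts 1 and 2, knockouts 3 and 4, and controls 2 and 3 differed by little more than counting noise. Without knockout 3, knockout 4 or control 2 the count was 2. Summed B cell markers were 0.753 to 9.21 CPM in Irf9 knockouts, with Blk at 0, and 19.1 to 23.3 CPM in controls, and their part was not tested.

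The Prdm1, Maf and double knockouts were compared with the same 3 controls, so their values are given side by side. Prdm1 encodes the repressor Blimp-1 and Maf the factor c-Maf. In the Prdm1 knockout the called rises were all of fatty acid genes, and the called falls were of Idi1 and Sc4mol. Of the cholesterol genes, 5 of 7 mevalonate and 6 of 11 sterol steps had a positive change there. In the Prdm1 knockout 4 of 31 tested members rose (12.9%), where 4.97% of 11316 genes rose, and 2 fell (6.45%), where 7.11% fell. In the double knockout 5 rose and 5 fell (16.1% each), where 8.2% of all genes rose and 10.8% fell. In the Maf knockout 1 rose and 1 fell (3.23% each), where 3.93% of all genes rose and 5.09% fell.

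Sc4mol was the member that fell in all 3. It stood at 252, 246 and 237 CPM in Prdm1 knockouts (-0.29 ± 0.05, adjusted p = 0.00077), at 262, 249 and 251 CPM in Maf knockouts (-0.17 ± 0.05, adjusted p = 0.0404) and at 232 and 239 CPM in double knockouts (-0.38 ± 0.06, adjusted p = 0.000102), against 294, 289.6 and 279 CPM in the shared controls. Every knockout library lay below every control for Sc4mol. Idi1 stood at 243, 215 and 226 CPM in Prdm1 knockouts (-0.39 ± 0.06, adjusted p = 7.96e-05), at 259, 255 and 263 CPM in Maf knockouts (-0.13 ± 0.06, adjusted p = 0.146) and at 241 and 236 CPM in double knockouts (-0.35 ± 0.06, adjusted p = 0.000448), against 302, 277 and 278 CPM in controls. Its Prdm1 change was lower than its Maf change (-0.25 ± 0.06, adjusted p = 0.0055). Insig1, the sterol isomerase gene Ebp and Stard4 fell in the double knockout (-0.27 ± 0.06, -0.27 ± 0.09 and -0.26 ± 0.08) and passed in neither single one. No member's double knockout change differed past the threshold from the sum of the single changes by edgeR or DESeq2, where 1.1% of all genes did, and 3 had an unadjusted p under 0.05.

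Elovl6, which lengthens palmitate to stearate, had the largest rise. It stood at 19.7, 21.8 and 28.4 CPM in Prdm1 knockouts (0.61 ± 0.12, adjusted p = 0.0025), at 15.9, 13.3 and 16.2 CPM in Maf knockouts (0.05 ± 0.13, adjusted p = 0.873) and at 28.4 and 27.3 CPM in double knockouts (0.84 ± 0.13, adjusted p = 0.000122), against 14.8, 15.3 and 13.9 CPM in controls. Prdm1 and double knockouts lay above all controls, and the Prdm1 change was higher than the Maf change (0.56 ± 0.12, adjusted p = 0.00469). Scd1, which acts on the stearate, stood at 98.6, 90.4 and 92.4 CPM in Prdm1 knockouts (0.34 ± 0.08, adjusted p = 0.00806) and at 105 and 108 CPM in double knockouts (0.49 ± 0.09, adjusted p = 0.000432), against 68.2, 75.1 and 70.8 CPM in controls. Acss2 stood at 41.0, 42.4 and 44.2 CPM in Prdm1 knockouts (0.31 ± 0.08, adjusted p = 0.0105) and at 46.0 and 46.5 CPM in double knockouts (0.41 ± 0.08, adjusted p = 0.00162), against 32.8, 30.2 and 35.1 CPM in controls. For both genes, knockouts and controls did not overlap. In Maf knockouts Scd1 and Acss2 had 0.22 ± 0.08 and 0.16 ± 0.08 and did not pass.

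Fads1, a delta-5 desaturase, rose in Prdm1 knockouts, at 37.4, 38.3 and 43.5 CPM against 31.2, 27.7 and 30.2 CPM in controls (0.35 ± 0.08, adjusted p = 0.00491). Tm7sf2, a sterol reductase, and Mvk rose in double knockouts. Tm7sf2 stood at 16.9 and 17.5 CPM, against 10.8, 9.38 and 12.7 CPM in controls (0.56 ± 0.16, adjusted p = 0.0212), and Mvk had 0.40 ± 0.13, adjusted p = 0.0358. Hmgcs1 stood at 577, 529.6 and 563 CPM in Maf knockouts, against 508, 493 and 508 CPM in controls (0.15 ± 0.04, adjusted p = 0.0345), and its Prdm1 change was lower than its Maf change (-0.15 ± 0.04, adjusted p = 0.0353). Hsd17b7 also differed between the single knockouts (-0.31 ± 0.08, adjusted p = 0.0163) without passing in either (-0.22 ± 0.08 in Prdm1 and 0.10 ± 0.08 in Maf). These 4 of 31 differences, 1 higher and 3 lower, stand beside 3.91% of all genes higher and 4.29% lower. The summed 32 genes were 5775 to 5920 CPM in Prdm1, 5730 to 6014 in Maf and 5879 to 6077 in double knockouts, against 5750 to 5823 CPM in controls. Summed B cell markers were 21.1 to 27.3, 11.8 to 16.4 and 24.5 to 26.8 CPM in Prdm1, Maf and double knockouts, against 15.7 to 16.7 CPM in controls, with Pax5 and Blk at 0 in controls. Those of CD8 T and NK cells were 137 to 155, 134 to 157 and 226 to 236 CPM in the same 3 groups, against 113 to 114 CPM in controls, and Cd8a and Klrk1 rose in all 3. Of the 7 CD4 T cell markers Cd3e and Cd28 fell in Prdm1 and double knockouts, and Cd3g and Cd5 rose in Maf knockouts. The part of these lists was not tested. With replicate 3 of the double knockout kept in the fit, no member passed in any of the 3 comparisons. That library had 9059 expected counts, 171 genes detected and a member sum of 0 CPM, so this fit cannot check the calls. The Maf count was 0 without Maf knockout 1, Maf knockout 3, Prdm1 and Maf control 1 or Prdm1 and Maf control 2, 1 without either double knockout, 4 without Prdm1 and Maf control 3 and 5 without Prdm1 knockout 3. Without double knockout 2 that of the double knockout was 6, and without Maf knockout 1 or Maf knockout 3 the differences between the single knockouts numbered 2.

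**Figure D4:**
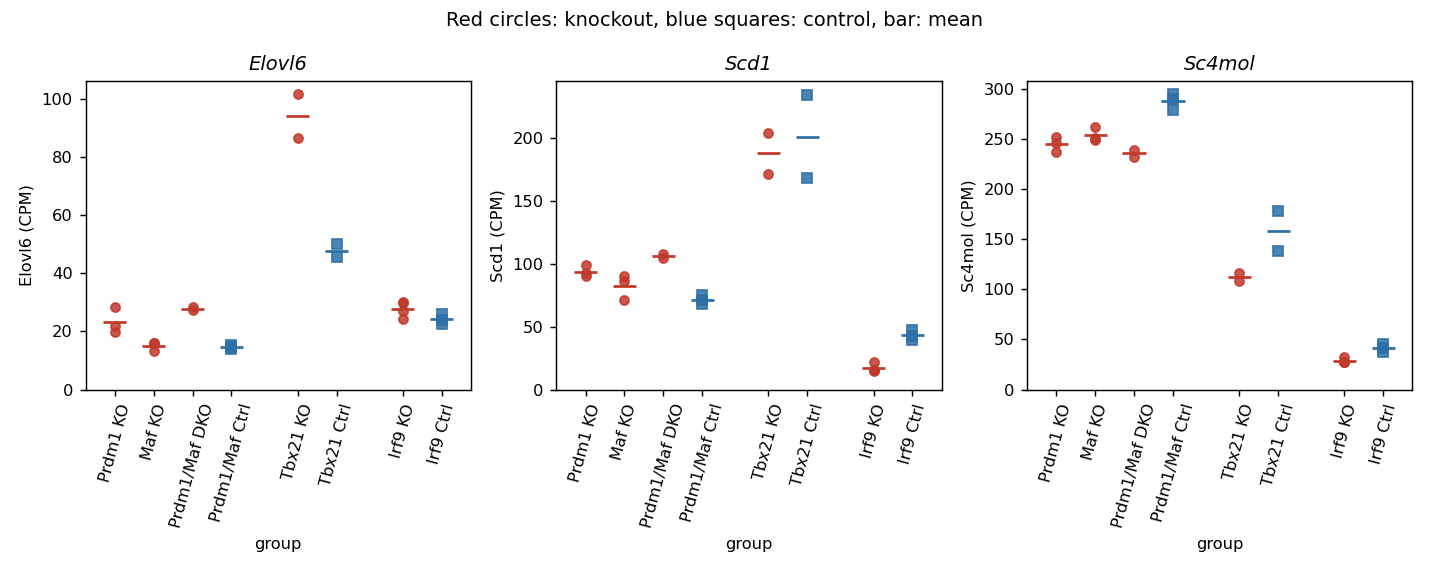
CPM of Elovl6, Scd1 and Sc4mol in each library of the Prdm1 and Maf, Tbx21 and Irf9 experiments (axes start at 0, bars are group means). Elovl6 is higher in Prdm1, double and Tbx21 knockouts than in their controls, and Scd1 is lower in Irf9 knockouts.

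Tbx21, the gene of the Th1 factor T-bet, was the other factor in whose knockout Elovl6 rose. Elovl6 stood at 102 and 86.7 CPM in Tbx21 knockouts, against 45.7 and 49.97 CPM in Tbx21 controls (0.86 ± 0.15, adjusted p = 0.0172). Mvd stood at 41.7 and 33.9 CPM in Tbx21 knockouts, against 59.99 and 53.5 CPM in controls (-0.70 ± 0.16, adjusted p = 0.0431). Neither gene's groups overlapped. These were 3.23% of 31 tested members in each direction, where 2.99% of 10978 genes rose and 3.73% fell. The median change was -0.255, against 0.0077 for all genes, and 10 of 11 sterol steps and 6 of 7 mevalonate steps had a negative change. Examples were -0.80 ± 0.21, adjusted p = 0.0579 for Mvk and -0.61 ± 0.17, adjusted p = 0.0706 for Sc4mol. Both knockouts lay below both controls for only 3 of the sterol steps and 4 of the mevalonate steps. The summed members were 6082 and 5858 CPM in Tbx21 knockouts, against 7102 CPM in Tbx21 control 1 and 5842 CPM in Tbx21 control 2. Both knockout sums thus lay below that of control 1 but not below that of control 2. Without Tbx21 control 1 no member passed, without Tbx21 knockout 1 or Tbx21 knockout 2 the counts were 5 and 4, with no filter on low counts 4, and with DESeq2 or without Tbx21 control 2 Mvd did not pass. Summed B cell markers were 28.3 to 43.2 CPM in Tbx21 knockouts and 19.9 to 23.9 CPM in controls, and those of CD8 T and NK cells 24.9 to 26.4 CPM in knockouts and 78.0 to 81.3 CPM in controls. Of 2 CD8 T and NK cell markers tested, Klrk1 fell (-4.70 ± 0.40) and the other did not pass, with a list median of -1.98. Of the 7 CD4 T cell markers, 2 fell, Cd3e (-0.95 ± 0.20, adjusted p = 0.0298) and Cd3d (-1.01 ± 0.17, adjusted p = 0.0147), and the list median was -0.59. The part of these lists was not tested.

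In the libraries labelled Atf3 knockout 3 of 31 tested members rose (9.68%), where 3.32% of 9609 genes rose, and none fell, where 4.87% of all genes fell. Dhcr7 stood at 77.1 and 77.7 CPM in those libraries, against 45.1 and 51.8 CPM in Atf3 controls (0.67 ± 0.14, adjusted p = 0.00119). Pmvk stood at 60.5 and 60.1 CPM in the labelled libraries, against 42.2 and 41.6 CPM in controls (0.52 ± 0.15, adjusted p = 0.0287). Cyp51 stood at 250.01 and 265 CPM, against 188 and 189.8 CPM in controls (0.45 ± 0.10, adjusted p = 0.00431). No gene's groups overlapped. Summed B cell markers were 79.0 to 80.3 CPM in the labelled libraries and 10.7 to 15.5 CPM in controls, with Cd79a, Pax5 and Blk at 0 there. Those of CD8 T and NK cells were 39.9 to 41.2 CPM in the labelled libraries and 127 to 181 CPM in controls, and the part of either list was not tested. None passed with DESeq2, and 1 passed without labelled library 2.

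Idi1 was the member past the threshold in the most comparisons, 6 of 16 (5 without that of the single Stat3 library), and it stood apart from the other mevalonate genes in Batf and Stat3 knockouts. Batf encodes a bZIP partner of Jun proteins, and Stat3 transmits the signal of the IL-27 receptor. Idi1 stood at 400.4 and 354 CPM in Batf knockouts and at 541 CPM in the Stat3 knockout, against 162, 164 and 94.7 CPM in the controls of batches A, B and B. Within batch A the value was 400.4 CPM in the Batf knockout and 162 CPM in the control. Within batch B it was 354 CPM in the Batf knockout and 541 CPM in the Stat3 knockout, against 164 and 94.7 CPM in controls. These 3 knockouts were the highest of all 63 libraries, the next highest being a Prdm1 and Maf control at 302 CPM. The changes were 1.31 ± 0.24, adjusted p = 0.0044 in Batf and 1.95 ± 0.30, adjusted p = 0.00342 in Stat3, where the single Stat3 library is assumed to vary like the others. Its p rests on the spread of the other groups, no second Stat3 library checks the value, and it could not be left out.

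No other member passed in either, so 3.23% of 31 tested members rose, where 1.16% of 11059 genes rose in Batf and 0.398% in Stat3. None fell, where 2.88% of all genes fell in Batf and 1.22% in Stat3. The next step, Fdps, had -0.19 ± 0.20 in Batf and -0.20 ± 0.26 in Stat3, and Mvd, the step before, had -0.17 ± 0.28 and -0.40 ± 0.39. The Batf and Stat3 changes of Idi1 did not differ past the threshold (-0.65 ± 0.34, adjusted p = 0.948), again on that 1 library, where 0.118% of all genes differed. The Batf change was higher than the Irf1 change (1.52 ± 0.30, adjusted p = 0.00975), 1 of 31 members, where 1.32% of all genes were higher and 2.36% lower. Idi1 in Irf1 knockouts stood at 137, 114 and 65.5 CPM (-0.21 ± 0.24) and in Irf8 knockouts at 79.5 and 152 CPM (0.07 ± 0.26). Irf8 knockout 1 held 43.7% Rn45s, and with Rn45s left out the Irf8 knockout values were 141 and 158 CPM. Without Batf knockout 1 or Batf knockout 2 the Batf change was 1.31 and 1.27, with adjusted p of 0.114 and 0.139 by edgeR. The difference from Irf1 did not pass without Batf knockout 1, Batf knockout 2, Irf1 knockout 1 or the batch C control, and 2 members passed without batch B control 2. Summed CD4 T cell markers were 2290 to 2670 CPM in Batf knockouts and 1810 CPM in the Stat3 knockout, against 2430 to 2870 CPM in the controls of batches A and B. Summed myeloid markers were 8.43 to 8.59 CPM in Batf knockouts and 14.3 CPM in the Stat3 knockout, against 1.95 to 4.67 CPM in those controls, with Lyz2 and Csf1r at 0 in the knockouts. Of 3 CD8 T and NK cell markers tested in Batf knockouts, Klrk1 fell (-2.76 ± 0.34) and none rose, while the list median was 1.42. The part of these lists was not tested.

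**Figure D5:**
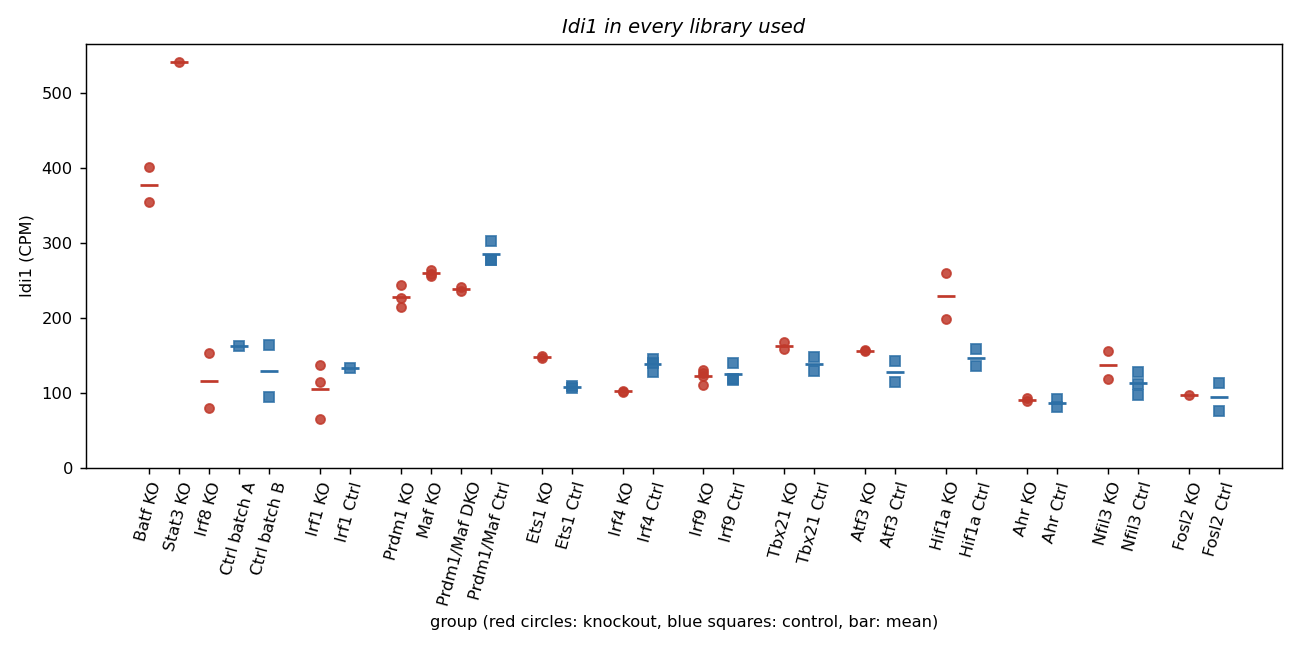
Idi1 (CPM, axis from 0) in each of the 63 libraries by group, knockouts as red circles left of their controls as blue squares, with bars at group means. The 2 Batf knockouts at 400.4 and 354 CPM and the Stat3 knockout at 541 CPM stand above all other libraries.

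Scd1, Acss2 and Sc4mol came next, with 4 comparisons each. Scd1 rose in Prdm1 and double knockouts and in the libraries labelled Ets1 knockout and fell in Irf9 knockouts, with -0.02 ± 0.09 in Irf4. In the 12 comparisons where it did not pass, its change lay between -0.32 and 0.22. Over knockout libraries its level was lowest at 14.9, median 133 and highest at 409 CPM, against 39.7, 154 and 253 CPM over controls. Acss2 rose in the same 3 and fell in Irf4 knockouts, and lay between -0.52 and 0.75 elsewhere. Its lowest, median and highest levels were 4.69, 27.7 and 52.5 CPM over knockouts and 7.92, 25.2 and 50.2 CPM over controls. Both genes thus moved in opposite directions in different knockouts.

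Sc4mol passed each time as a fall, and lay between -0.61 and 0.31 in the other 12. Its lowest, median and highest levels were 27.1, 117 and 262 CPM over knockouts and 37.5, 109 and 294 CPM over controls. Next, 5 members passed in 3 comparisons each. Hmgcs1 had rises in the libraries labelled Ets1 knockout and in Maf knockouts and a fall in Irf9 knockouts. Its lowest, median and highest levels were 73.1, 223 and 577 CPM over knockouts and 102, 203 and 508 CPM over controls. Cyp51 had rises in the libraries labelled Ets1 and Atf3 knockout and a fall in Irf9 knockouts, and its levels were 79.5, 216 and 353 CPM over knockouts and 107, 190.4 and 351 CPM over controls. Mvd rose in the libraries labelled Ets1 knockout and fell in Tbx21 and Irf4 knockouts, Stard4 rose in the same labelled libraries and in Irf4 knockouts and fell in double knockouts, and Elovl6 rose in Prdm1, double and Tbx21 knockouts. These spans mix experiments of different depth, strain and Rn45s share and are descriptions only. The lowest knockout values of Hmgcs1 and Cyp51 were those of Irf8 knockout 1, at 43.7% Rn45s. With Rn45s left out they were 130 and 141 CPM in that library. The lowest Cyp51 control value was that of Fosl2 control 2, at 39.6% Rn45s, and was 177 CPM with Rn45s left out. Each of the 31 members other than Me1 passed in at least 1 comparison, 10 of them in the Ets1 comparison alone.

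In 6 comparisons edgeR, fitted without a replicate block, called no member, and DESeq2 called none either. At an unadjusted p under 0.05 there were 0 members in Ahr, 0 in Fosl2, 5 in Hif1a, 1 in Nfil3, 3 in Irf1 and 0 in Irf8. The shares of all genes called in either direction were 0.381% in Ahr, 0.632% in Fosl2, 5.55% in Hif1a, 0.0207% in Nfil3, 0.479% in Irf1 and 0.0452% in Irf8. In Hif1a knockouts the smallest p belonged to Stard4, at 77.2 and 78.4 CPM against 103 and 104 CPM in Hif1a controls (-0.54 ± 0.18, adjusted p = 0.12), with no overlap. Idi1 stood at 260.3 and 198 CPM in Hif1a knockouts, against 158 and 135 CPM in controls (0.52 ± 0.20, adjusted p = 0.193). Without Hif1a knockout 1 or Hif1a knockout 2 the Hif1a counts were 2 and 7, and summed B cell markers were 108 to 170 CPM in Hif1a knockouts and 15.3 to 16.8 CPM in controls, their part not tested. The smallest p belonged to Hsd17b7 in Irf1 knockouts (-0.86 ± 0.35, adjusted p = 0.571), to Mvd in Nfil3 knockouts (-0.40 ± 0.17, adjusted p = 1) and to Acss2 in Irf8 knockouts (0.75 ± 0.36, adjusted p = 0.949), with Irf8 knockout 1 at 43.7% Rn45s. Fosl2 rested on 1 knockout library.

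Genes around the 2 routes were read from 5 further lists. In the libraries labelled Ets1 knockout, 5 of 14 tested genes of fatty acid activation, elongation and glycerolipid synthesis rose and none fell, where 10% of all genes rose and 10.3% fell, and the list median was 0.165, against 0.0031 for all genes. They were Acsl4, which couples long fatty acids to CoA (0.69 ± 0.08, adjusted p = 0.000167), the elongases Elovl1 (0.59 ± 0.11) and Elovl5 (0.44 ± 0.09), Hsd17b12 (0.36 ± 0.11) and Dgat1, the last enzyme of triglyceride synthesis (0.59 ± 0.12). Of 7 tested genes of sterol export, storage and LXR, Lpcat3 rose (0.63 ± 0.12) and the sterol exporter Abcg1 fell (-0.48 ± 0.15). Of 10 tested oxidation genes Acadvl fell (-0.35 ± 0.10). Pparg had 2.03 ± 0.49, but it may have passed the filter on low counts only through its high group, so this is a description only. None of 4 SREBP processing or 9 isoprenoid genes passed.

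In Irf4 knockouts, 3 of 8 tested export and storage genes rose and 1 fell, where 14.8% of all genes rose and 13.2% fell. The sterol exporter Abca1 (1.32 ± 0.25, adjusted p = 0.000272), the LXR gene Nr1h2 (0.61 ± 0.12) and Soat1, which esterifies cholesterol (0.60 ± 0.11), rose, and Abcg1 fell (-0.68 ± 0.13). Of 14 tested activation and glycerolipid genes 3 rose and 4 fell, with Dgat1 (1.51 ± 0.12) highest and the citrate carrier Slc25a1 (-0.46 ± 0.10) lowest. Mbtps1, the site-1 protease that cleaves SREBP, rose (0.32 ± 0.11), 1 of 4, no isoprenoid gene of 9 passed, and of 9 oxidation genes Acadl and Hadhb fell (-0.72 ± 0.09 and -0.35 ± 0.10).

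Of these lists, Irf9 knockouts had 1 gene past the threshold, Acadl, the long-chain acyl-CoA dehydrogenase of fatty acid oxidation, which rose (0.60 ± 0.12, adjusted p = 0.00162), where 2.45% of all genes rose. Acadl fell in Prdm1 (-0.26 ± 0.05), double (-0.30 ± 0.06), Hif1a (-0.73 ± 0.19), Tbx21 (-1.01 ± 0.24), Irf4, Batf (-0.98 ± 0.22) and Stat3 (-1.33 ± 0.31) knockouts and in the libraries labelled Atf3 knockout (-0.61 ± 0.11). Dgat1 fell in Batf (-2.35 ± 0.28), Stat3 (-2.19 ± 0.40) and Hif1a (-1.18 ± 0.20) knockouts and in the libraries labelled Atf3 knockout (-0.95 ± 0.12). Npc1, which moves cholesterol out of lysosomes, fell in Maf (-0.61 ± 0.08), double (-0.30 ± 0.08) and Tbx21 (-1.04 ± 0.17) knockouts and in the libraries labelled Atf3 knockout (-0.38 ± 0.12). Other genes of these lists passed too. Acadm, also of fatty acid oxidation, rose in double knockouts (0.30 ± 0.09), and Hadhb fell in Prdm1 and double knockouts (-0.21 ± 0.05 and -0.20 ± 0.06). Acsl4 fell in Prdm1, Maf and double knockouts (-0.32 ± 0.06, -0.26 ± 0.06 and -0.51 ± 0.07), and Npc2 fell in Prdm1 and double knockouts (-0.17 ± 0.06 and -0.35 ± 0.06). Several of these comparisons share controls, so they are not separate observations of each gene.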

How the data were processed

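RNA from 69 libraries was sequenced after an adaptation of SMART-Seq2, per the labels. The submitters' processing notes name TopHat, RSEM and the mm9 build, without versions or roles. The tables deposited by the authors give an expected count, a TPM and an FPKM per gene. Of nonzero expected counts 22.4% were not whole (tolerance 0.001), so the deposited expected counts were rounded. TPM as deposited served for levels between genes, and deposited FPKM only to rank the members. CPM is the expected count scaled to counts per 1e6 of the library total.

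Changes were tested per experiment in R 4.3.3 with edgeR 4.0.16 (filterByExpr, TMM, quasi-likelihood F-test; limma 3.58.1), Benjamini-Hochberg adjusted over all genes tested, at 0.05. Batf, Stat3, Irf1 and Irf8 were fitted together with a batch term. The code was tested on simulated data with 200 changed genes. Alternatives were DESeq2 1.42.0, its size factors, no filter, Rn45s left out, a replicate block, each library left out, and, added after the data were seen, summed library pairs and the joint Ets1 and Irf4 fit. Of 44 replicate pairs none were identical, and 4 had a chi-square under 1.3 times its degrees of freedom. These were Irf9 knockouts 1 and 2, Irf9 knockouts 3 and 4, Irf9 controls 2 and 3, and Irf4 controls 1 and 2. The members and lists were chosen with earlier results of these data known. Named were up to 6 rises and 6 falls per comparison by size, with library values for up to 4 of each, and the first 6 members by number of comparisons called, ties by mean TPM (Hmgcs1 and Cyp51 were taken from 5 members tied at 3). The 6 libraries left out follow the rule for the set. The lowest total among them was 9059 expected counts, that of double knockout 3. Totals cover counting error only.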

Additional observations from a re-analysis of the deposited data

Results flagged for a closer look

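In Irf9 knockouts, the group of 4 libraries, 1 library stood apart from the other 3 for 3 members. Sc4mol was 32.2 CPM in Irf9 knockout 2, Hsd17b7 was 11.4 CPM in Irf9 knockout 2 and Scd1 was 22.1 CPM in Irf9 knockout 4, each far from the rest by Dixon's criterion. With 31 members examined, chance flags about 1 in 20.

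Changes that differed between knockouts by a test of the difference were those of 23 members between the libraries labelled Ets1 knockout and Irf4 knockouts. Between Prdm1 and Maf knockouts the differences were -0.152 for Hmgcs1, -0.252 for Idi1, -0.313 for Hsd17b7 and 0.557 for Elovl6 on the log2 scale. Between Batf and Irf1 knockouts the difference was 1.52 for Idi1.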

How the results depend on the processing

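Of 110 counts of members past the threshold under settings other than leaving out a library, 96 were within 1.5 times the reported count and 14 were not. With DESeq2 the counts were 0 for Atf3, 1 for Tbx21, 7 for Irf4 and 1 for Irf9. Without a filter on low counts they were 1 for the interaction of Prdm1 and Maf and 4 for Tbx21, and without a batch term 3 for Batf minus Irf1. With double knockout 3 kept, the counts were 0 for Prdm1, 0 for Maf and 0 for the double knockout, where Acss2 and Scd1 turned to -0.051 and -0.068. These values cannot check the calls, since double knockout 3 had 9059 expected counts and a member sum of 0 CPM. With the closest library pairs summed, added after the data were seen, Irf9 had 1, from fewer libraries. The cause of the other shifts was not tested. Leaving out 1 library gave 5 to 7 for Prdm1, 0 to 5 for Maf, 6 to 12 for the double knockout, 0 to 1 for the interaction, 2 to 6 for Prdm1 minus Maf, 1 to 3 for Atf3, 15 to 24 for Ets1 (Me1 included), 0 to 7 for Hif1a, 0 to 5 for Tbx21, 5 to 12 for Irf4, 1 to 5 for Irf9, 0 to 1 for Batf, 1 to 1 for Stat3 (whose only knockout library could not be left out), 0 to 2 for Batf minus Irf1 and 17 to 23 for Ets1 minus Irf4. It gave 0 to 0 for Ahr, Nfil3, Irf1, Irf8 and Batf minus Stat3. Where this left 1 library in a group, that library was assumed to vary like the others. Fosl2, with 1 knockout library, had no such fit. Of 777 values of called members under other settings, 641 stayed past the threshold in the same direction, 134 kept the direction only and 2 reversed.

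The labels' replicate numbers did not meet the criterion for pairing, a correlation over 0.1 in each of 3 or more pairs. Experiments with 2 pairs could not meet it, so whether their libraries are paired was not decided. Correlations of same-numbered libraries were -0.0711 to 0.0834 in the Prdm1 and Maf experiment, 0.297 in Hif1a, 0.18 in Tbx21, and -0.261 and -0.35 in Nfil3. The last 3 had 2 pairs each. In Hif1a and Tbx21, with 2 libraries per group, both pairs give the same value by construction. With the number as a block the counts were 6 for Hif1a (4 rises, 2 falls), 6 for Tbx21 (1 rise, 5 falls), 2 for Irf9, 19 for Ets1 and 13 for Irf4, and equal to the reported ones for Prdm1, Maf, Atf3, Ahr and Nfil3. For the double knockout the total was again 10, with 4 rises and 6 falls, and 9 members shared. No paired analysis was possible for Fosl2 because it had 1 knockout library.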

Other observations

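Idi2, a second isopentenyl-diphosphate isomerase gene and the next gene to Idi1 on the chromosome, was looked at after the values of Idi1 were seen. It stood at 10.7 and 23.5 CPM in Batf knockouts and 39.4 CPM in the Stat3 knockout, against 1.3, 0.968 and 0 CPM in the controls of batches A, B and B. All 3 knockouts lay above all 3 controls. Idi2 passed the filter on low counts only through the groups in which it is high, so these values are a description only. Gtpbp4, which lies 2 places from Idi1, had 0.92 ± 0.24, adjusted p = 0.0414 in Batf and 0.46 ± 0.31, adjusted p = 0.567 in Stat3. Pfkp, 3 places away on the other side, fell in Batf (-0.82 ± 0.19, adjusted p = 0.0268) and had -0.41 ± 0.26, adjusted p = 0.525 in Stat3. Wdr37 and Larp4b did not pass in either. In double knockouts, where Idi1 fell, Idi2 had 32 and 14 counts, against 9, 5 and 7 in the shared controls, again a description only. Expected counts were whole for both genes in the Batf and Stat3 knockouts (Idi1 932, 966 and 755, Idi2 25, 64 and 55). Whether the similar genes Idi1 and Idi2 share reads was not tested, so the division between these genes is uncertain.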
